A study of Homo sapiens with 4 samples.

Results

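The genes examined here serve DNA replication and the passage from G1 into S phase. They are 49 listed genes, taken with all their probes by the symbol of the platform annotation, and they hold 70 of the 27645 probes that carried a single symbol, in a table of 18473 named genes. By role, 11 members license replication origins, 7 fire them, 17 are polymerases or work at the fork, 5 supply nucleotides or keep uracil out of DNA, 4 copy chromatin and DNA methylation, and 5 are E2F factors or control G1/S. The rule that names them uses no measured value, although they were proposed with earlier results of these data known. Where a gene had several probes, the brightest stood for it, and the others are described separately.

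Replication is prepared in G1, when the origin recognition complex, CDC6 and CDT1 load the ring-shaped MCM2 to MCM7 helicase onto DNA. In S phase the kinase CDC7, CDC45 and the GINS complex turn this ring into an active helicase, and polymerases, the sliding clamp PCNA and its RFC loader follow. Most of these genes are textbook targets of the E2F transcription factors, which are held in check by the RB family until G1 cyclins release them, so their transcripts are high in cells that enter S phase and low in cells that leave the cycle.

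Expression was measured in HEK293 cells, a human line derived from embryonic kidney, transfected with 100 pmol of control siRNA or of siRNA against CDC73, a subunit of the PAF1 complex that travels with RNA polymerase II. After 24 hours the cells were replated, on 100 mm dishes for sparse cultures and on 35 mm dishes for confluent ones, and harvest followed 24 hours after that. The 4 groups combine either siRNA with either density (control sparse, CDC73 sparse, then the confluent pair in the same order), with 1 array each, so no difference between 2 arrays has a replicate check. All cells were of the same line and were transfected, and whether sparse and confluent dishes shared a transfection is not in the labels. RNA came from whole dishes, in which fewer cells in S phase and less transcript per cell cannot be told apart.

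The knockdown could not be checked, since the CDC73 probe was detected on 0 of 4 arrays, with intensities between 72.3 and 98.3. Of 9 markers that HEK293 cells are known for, 8 were on the array and 6 were detected on all 4 arrays, while NEFM and PAX2 were detected on none. Of 9 markers of other cell types, PTPRC, CD3E, ALB, APOA1 and GFAP were detected on no array, the fibroblast collagens COL1A1 and COL3A1 on all 4, and LUM and PECAM1 on 3. The summed intensity of these 9 was 1096 and 1023 on the sparse arrays (control and CDC73 siRNA) and 1351 and 1221 on the confluent ones, and its part in the density results was not tested. The CDC73 confluent array was the dimmest as deposited. Its total intensity was 22948071, against 25283814 to 28273404 on the others, and before normalization its 9047 genes detected on all arrays were lower than with control siRNA by a median of 0.47 on the log2 scale.

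Intensities below are the deposited values, which are not normalized, and 4 values in a row run from sparse cells with control and CDC73 siRNA to confluent cells with control and CDC73 siRNA. Where 2 siRNA effects (CDC73 minus control siRNA) are given for a gene, sparse cells come before confluent cells. Differences are on the log2 scale after background correction, an offset of 16 and quantile normalization, so a difference can have another sign than the raw intensities of 2 arrays of unequal brightness. A probe counted as detected when fewer than 1 in 100 probes of olfactory receptor genes were as bright (detection p under 0.01), and a gene entered a comparison only if 1 or both of the arrays compared detected it. Of the 49 members, 45 were detected on all 4 arrays, E2F8 and CLSPN on 1 array each, and E2F1 and GINS1 on none. Sizes are given against 1.5-fold (0.585 on the log2 scale) and 2-fold (1), beside the share of all measured genes that passed the same size.

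In sparse cells the replication genes were slightly higher with CDC73 siRNA, and in confluent cells most of them were lower. In sparse cells 31 of 46 measured members were higher, where 53.9% of all genes were higher and 46.1% lower, and the median difference was 0.15 against 0.04 over all genes. The members at least 1.5-fold higher were E2F7, LIG1 and DSCC1 (3 of 46, against 9.4% of all genes), and POLE2 and E2F2 were at least 1.5-fold lower (2 of 46, against 7.64%). Neither count stood above its background, and no member reached 2-fold (2.12% of all genes higher, 1.8% lower). In confluent cells 31 of 46 were lower, where 50.2% of all genes were lower and 49.7% higher, with a median of -0.26 against -0.00 over all genes. At least 1.5-fold lower were 8 of 46 members (13.2% of all genes), E2F2, UHRF1, RRM2, MCM4 (on its brighter probe only), DNMT1, DSCC1, POLA2 and MCM2. E2F2 and UHRF1 were 2-fold lower (2 of 46, against 3.47% of all genes). Both counts were near the share of all genes. GMNN and TIPIN were at least 1.5-fold higher (11.3% of all genes), and no member was 2-fold higher (2.28%).

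The opposed directions were shared by 22 of the 45 members detected on all arrays, which were higher with CDC73 siRNA in sparse cells and lower in confluent cells. Of all 9047 genes detected on all arrays 23.2% showed this order. The reverse order was found for 5 members (20.7% of all genes), 9 members were higher at both densities (28.8%) and 9 were lower at both (27.2%). The difference between the siRNA effects, confluent minus sparse, had a median of -0.55 over 47 members against -0.05 over all genes, 34 of them were below 0 (53.8% of all genes, with 46.2% above), 19 were at least 1.5-fold below (16.8%) and 5 at least 2-fold (4.65%). No member detected on all arrays was at least 1.5-fold above (12.6% of all genes) or 2-fold above (2.9%). CLSPN had a fitted value past both sizes, but it was above the detection limit on 1 array only, so that value is not a measured difference. This contrast rests on 4 single arrays and has no error of its own. The spread between 2 probes of one gene was an SD per probe of 0.37 for this contrast over 1641 genes. It measures disagreement between probes on the same arrays and holds no error between arrays or cultures. When the arrays were scaled to the median of all detected probes in place of quantiles, the median over members was -0.16 and 28 of 47 members were below 0. The CDC73 confluent array was the lowest of the 4 for 26 of 45 members (31.1% of all genes), and the CDC73 sparse array the highest for 20 (26.0%).

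**Figure D1:**
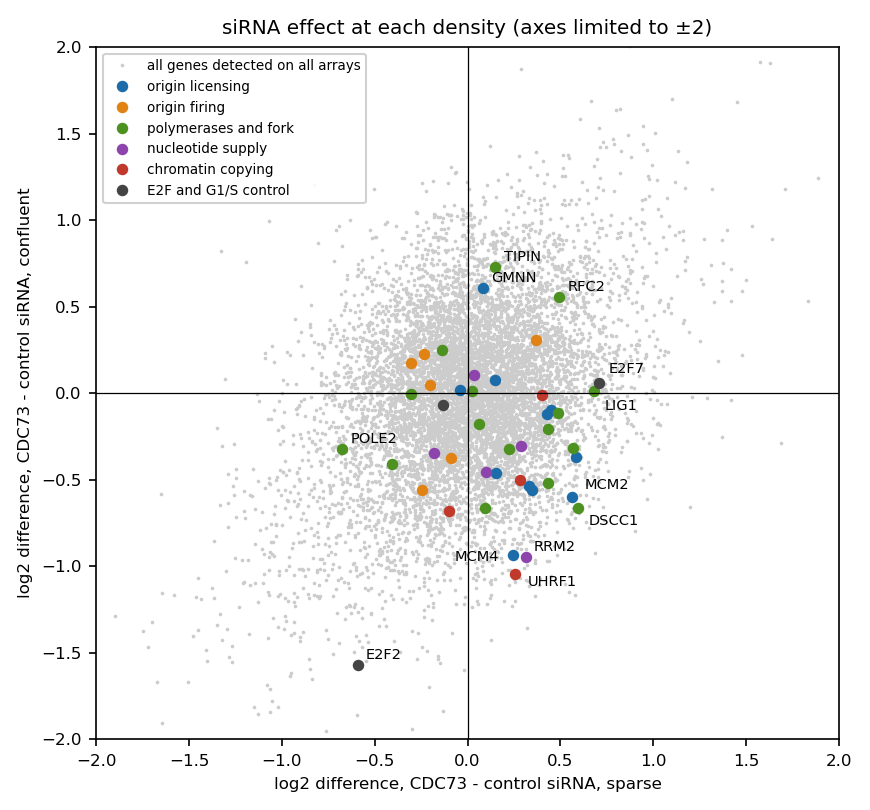
Each point is a gene detected on all 4 arrays, with the log2 difference between CDC73 and control siRNA in sparse cells on the horizontal axis and in confluent cells on the vertical axis; grey points are all 9047 genes and coloured points the 45 members by role; both axes end at 2, so the few genes beyond are not drawn. Of the members, 22 lie at the lower right (higher in sparse, lower in confluent cells), with UHRF1 and RRM2 far down and E2F2 apart at the lower left.

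The promoters of all members were searched for motifs, whatever their siRNA effects. Most members are textbook E2F targets, so a high share of E2F letters comes with the choice of genes. RefSeq windows (GRCh38.p14) of 300 bases, from 250 before to 50 after the annotated start, were listed for 43 members. DSCC1, E2F8, GINS4, MCM4, MCM5 and RPA2 had no entry, and of 11 members with several windows the first was taken. The E2F letters TTTCCCGC, TTTGGCGC, TTTCGCGC or TTTGCCGC were searched on both strands and occurred in 23 of the 43 windows (53.5%), against 4.44% of 14581 windows of genes on the array. The letters CCAAT, bound by NF-Y, occurred in 25 (58.1%, against 36.5%). The CHR letters TTTGAA or TTCGAA, typical of G2/M promoters, occurred in 2 (4.65%, against 13.3%). Among members detected on all arrays, the E2F letters were in 17 of 29 windows where the siRNA effect was more negative in confluent than in sparse cells, and in 3 of 11 where it was more positive. Whether the letters go with the siRNA effect was not tested. A match describes letters and is no evidence of binding, and sites outside these windows were not looked for. The 250 bases before the start of 5 members on which the results turn, chosen with their values known, are given below 5′ to 3′ on the strand of the gene, with E2F and CCAAT letters of either strand in capitals.
MCM6 (chr2:135876444-135876693, minus strand): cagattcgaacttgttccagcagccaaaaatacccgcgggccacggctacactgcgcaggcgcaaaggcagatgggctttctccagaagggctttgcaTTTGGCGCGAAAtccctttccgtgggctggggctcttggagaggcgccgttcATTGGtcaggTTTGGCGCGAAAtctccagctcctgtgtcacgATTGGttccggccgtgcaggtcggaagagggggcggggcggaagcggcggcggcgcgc
UHRF1 (chr19:4909251-4909500, plus strand): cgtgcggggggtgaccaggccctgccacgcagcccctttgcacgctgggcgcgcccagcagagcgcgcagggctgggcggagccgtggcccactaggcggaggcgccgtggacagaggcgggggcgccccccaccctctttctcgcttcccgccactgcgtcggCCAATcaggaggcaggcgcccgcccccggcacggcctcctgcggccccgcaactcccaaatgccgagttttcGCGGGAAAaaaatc
E2F2 (chr1:23531234-23531483, minus strand): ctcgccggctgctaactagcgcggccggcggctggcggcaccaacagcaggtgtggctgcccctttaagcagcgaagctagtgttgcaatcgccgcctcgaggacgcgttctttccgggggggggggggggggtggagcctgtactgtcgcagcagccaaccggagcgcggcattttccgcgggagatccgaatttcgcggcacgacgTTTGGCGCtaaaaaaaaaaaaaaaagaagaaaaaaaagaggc
RRM2 (chr2:10122489-10122738, plus strand): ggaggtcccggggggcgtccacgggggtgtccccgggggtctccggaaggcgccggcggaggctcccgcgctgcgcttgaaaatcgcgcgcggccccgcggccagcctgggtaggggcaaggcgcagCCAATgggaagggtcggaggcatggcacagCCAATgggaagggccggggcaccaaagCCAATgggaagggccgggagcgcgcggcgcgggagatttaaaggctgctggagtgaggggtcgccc
TIPIN (chr15:66386718-66386967, minus strand): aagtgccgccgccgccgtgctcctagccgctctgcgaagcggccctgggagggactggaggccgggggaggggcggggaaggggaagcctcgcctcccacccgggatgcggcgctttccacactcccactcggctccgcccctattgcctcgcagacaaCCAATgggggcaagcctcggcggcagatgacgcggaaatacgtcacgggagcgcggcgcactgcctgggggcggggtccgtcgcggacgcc
MCM6 carries 4 matches to the E2F letters, in 2 blocks where matches on both strands overlap, and 2 CCAAT matches. UHRF1 has 1 match to the E2F letters just before its start and E2F2 has 1. The windows of RRM2, which has 3 CCAAT matches, and of TIPIN, whose siRNA effect ran the other way, hold no E2F letters in these bases.

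Within origin licensing the helicase ring was uniform in sign on the brightest probes. All 6 subunits of the MCM2 to MCM7 helicase ring were higher with CDC73 siRNA in sparse cells (median 0.34) and lower in confluent cells (median -0.55). MCM2 had intensities of 2165, 3234, 3241 and 1587. MCM6 had 7152, 8657, 8034 and 4171 in the same order, and MCM7 had 10416, 12121, 12411 and 6552. The CDC73 confluent array was thus the lowest for each of these 3 subunits, and control sparse was the next lowest. The siRNA effects were 0.56 and -0.60 for MCM2 (sparse, then confluent), 0.43 and -0.12 for MCM3, 0.16 and -0.46 for MCM5, 0.34 and -0.56 for MCM6 and 0.33 and -0.54 for MCM7. In size, MCM5 and MCM4 (0.24) in sparse cells were below the probe SD of 0.25. MCM3 in confluent cells was below the probe SD of 0.32. Scaled to the median of detected probes, the medians of the 6 were 0.18 and -0.34, and MCM3 was not lower in confluent cells.

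Probes of one member often disagreed in sign. Of 9 members with a second probe detected on all arrays, 5 had the same sign on both probes for siRNA in sparse cells, 5 for siRNA in confluent cells, 4 for density with control siRNA and 6 for density with CDC73 siRNA. The same shares over all genes were not counted. Whether the disagreement is particular to the members or general on these arrays therefore cannot be told. Some of the differing signs came with an effect below the probe SD on the brighter probe. Examples are ORC6 (-0.04 in sparse and 0.02 in confluent cells) and PRIM1 (-0.005 in confluent cells). In the helicase ring MCM3 and MCM4 have a second probe detected on all arrays. The brighter MCM4 probe had intensities of 4390, 5035, 5813 and 2240, which gave siRNA effects of 0.24 and -0.93. Its second probe, also detected on all arrays, had 1664, 1584, 1780 and 1645 and gave -0.10 and 0.43. The probes thus pointed opposite ways at both densities, and the place of the second probe in the transcript was not examined here. A second probe of MCM3, at 0.19 and -0.09, had the signs of the brighter one.

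**Figure D2:**
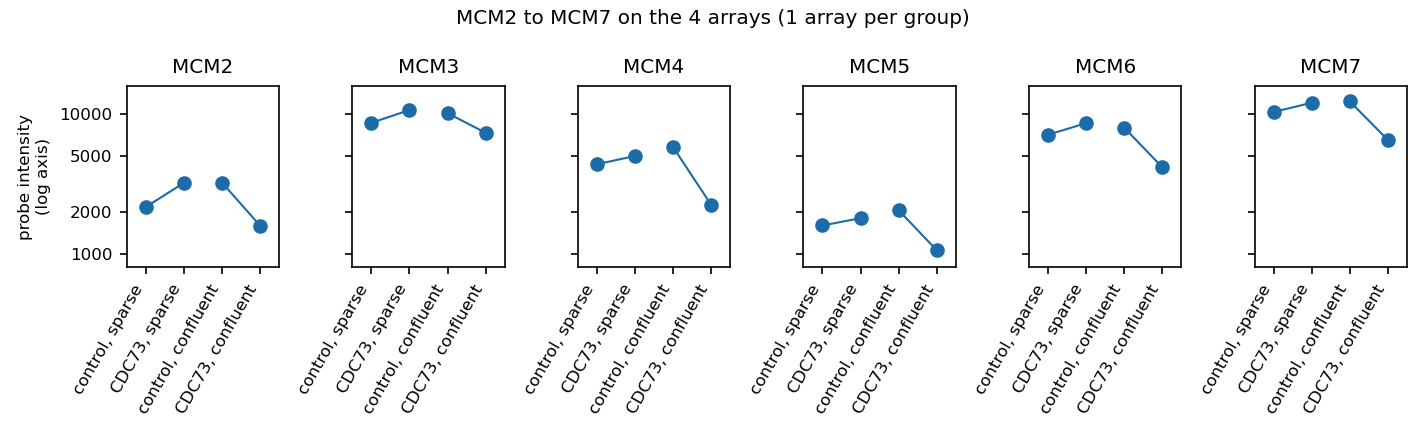
Deposited probe intensity (vertical, log axis) of the brightest probe of MCM2 to MCM7 on the 4 arrays (horizontal, 1 point per array, lines join the 2 siRNAs at one density). In sparse cells each line runs up from control to CDC73 siRNA, and in confluent cells each runs down, MCM2 for example from 3241 to 1587. These values are not normalized. Between the 2 confluent arrays the 9047 genes detected on all arrays had a median log2 intensity difference of -0.47, so part of each fall is shared by all genes.

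The loaders of the ring were less uniform. ORC1, the ATP-binding subunit of the origin recognition complex that is made in G1, had intensities of 282, 404, 407 and 235 and followed the ring, with siRNA effects of 0.58 and -0.37. CDT1, which brings the ring to the origin, had 1842, 2549, 3118 and 2079 and effects of 0.45 and -0.10. CDC6, the ATPase that loads the ring, was dim at 173, 189, 158 and 129, and its effects of 0.15 and 0.08 were both below the probe SD of 0.25 (sparse) and 0.32 (confluent). Geminin (GMNN), the inhibitor of CDT1, did not follow the ring, with 2461, 2630, 2383 and 2525 and effects of 0.08 and 0.61. The bright probe of ORC6, another origin recognition subunit, had 35707, 31924, 41408 and 40164 and gave -0.04 and 0.02, while its dimmer probe, with 623, 681, 709 and 378, gave 0.10 and -0.43.

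The origin firing genes showed no common direction. Of 6 measured, 5 were lower with CDC73 siRNA in sparse cells (median -0.22, with 46.1% of all genes lower) and 4 higher in confluent cells (median 0.11, with 49.7% of all genes higher), and none reached 1.5-fold in any comparison of arrays. CDC45, which joins MCM2 to MCM7 in the active helicase, was lower at both densities (4617, 3757, 4559 and 2224, effects of -0.25 and -0.56). GINS2 was higher at both (4786, 5943, 4608 and 4193, effects of 0.37 and 0.31), although its confluent intensities ran the other way before normalization. The other GINS subunits differed from it, GINS3 at -0.09 and -0.38 and GINS4 at -0.31 and 0.17. MCM10, which helps to activate the helicase, had 2373, 2017, 1830 and 1497 and effects of -0.24 and 0.23, and its second probe, with 399, 412, 382 and 315, gave 0.01 and 0.30. CDC7 was at -0.20 and 0.05. With scaling to the median of all probes the confluent median of these genes was -0.36, where that of all genes was -0.40. Its sign thus depended on the scaling.

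Among polymerases and fork proteins, 12 of 16 measured were higher with CDC73 siRNA in sparse cells (median 0.19, where 53.9% of all genes were higher) and 11 of 17 lower in confluent cells (median -0.18, where 50.2% of all genes were lower). Scaled to the median of detected probes, the confluent median was 0.09, and that of all genes was also 0.09. The catalytic subunits of the 3 replicative polymerases shared one order. POLA1 (primase complex) had 986, 1344, 1421 and 698, with effects of 0.43 and -0.52. POLD1 (lagging strand) had 433, 640, 680 and 386, with 0.57 and -0.32, and POLE (leading strand) had 603, 816, 932 and 556, with 0.43 and -0.21. After normalization each was highest on the CDC73 sparse array, while the lowest array was CDC73 confluent for POLA1 and control sparse for POLD1 and POLE. A dim second probe of POLA1, with 155, 118, 133 and 93.3 and not detected on the CDC73 confluent array, gave -0.68 and -0.58.

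The smaller polymerase subunits did not all go with their catalytic partners. POLA2 was at 0.10 and -0.66. POLE2, which stabilises the leading-strand polymerase, was lower at both densities, with 901, 587, 803 and 453 and effects of -0.68 and -0.32. PRIM1, the primase, had 1859, 1530, 2554 and 1807 and effects of -0.31 and -0.00, and its second probe, with 898, 772, 1005 and 822, gave -0.25 and 0.28. The subunits of the clamp loader differed from one another. RFC2 had 279, 381, 361 and 343 and was higher at both densities (0.49 and 0.55), while its second probe, with 224, 219, 270 and 210, gave -0.10 and 0.14. RFC4 had 2277, 2080, 2845 and 2411 with effects of -0.14 and 0.25, and its second probe, with 1716, 1636, 1497 and 1278, gave -0.09 and 0.32. RFC3 was lower at both densities on both probes (-0.41 and -0.41, second probe -0.27 and -0.12), and RFC5 was at 0.23 and -0.32. DSCC1, part of an alternative clamp loader, was dim but among the most opposed, at 171, 233, 223 and 129 with effects of 0.60 and -0.66.

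PCNA, the sliding clamp, differed little between siRNAs on its bright probe, at 6281, 6233, 8376 and 6522 with siRNA effects of 0.02 and 0.01. Another PCNA probe, dim and not detected on the CDC73 confluent array, had 220, 125, 232 and 86.5 and gave -1.30 and -2.06. The dim probe was thus lower with CDC73 siRNA at both densities while the bright one was within its probe SD, and which of them follows the transcript was not tested. The DNA ligase LIG1, which seals Okazaki fragments, had 859, 1376, 1597 and 1120, with effects of 0.68 and 0.01. The flap nuclease FEN1 had 9726, 12390, 9210 and 6586, with 0.49 and -0.11, and its second probe, with 789, 973, 751 and 594, gave 0.29 and 0.24. RPA2, of the single-strand binding complex, was at 0.06 and -0.18. TIPIN, of the fork protection complex, stood apart with 640, 724, 473 and 498 and effects of 0.15 and 0.73. CLSPN, the checkpoint mediator at the fork, had 108, 84.9, 110 and 109 and was detected on the CDC73 confluent array only, where its normalized level was at least 1.13-fold higher than on the control confluent and on the CDC73 sparse array.

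Of the nucleotide supply genes, RRM2 had the strongest order. This subunit of ribonucleotide reductase is made in S phase, and it had 412, 512, 659 and 266, with effects of 0.31 and -0.95. Its partner RRM1, a more stable subunit, had the same signs (0.29 and -0.31). UNG, the uracil DNA glycosylase, was at 0.10 and -0.46 and the thymidine kinase TK1 at -0.18 and -0.35. Thymidylate synthase (TYMS) had 4504, 4453, 4531 and 3503 and effects of 0.03 and 0.10, both below the probe SD. The intensity of TYMS on the CDC73 confluent array was below the other 3, while its normalized difference from control was slightly above 0.

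The chromatin copying genes were all lower with CDC73 siRNA in confluent cells (4 of 4, median -0.59, with 50.2% of all genes lower), and 3 of 4 were higher in sparse cells (53.9% of all genes). UHRF1, which recruits the maintenance DNA methyltransferase to new DNA, had 6761, 7650, 8635 and 3126, with effects of 0.25 and -1.05, the most opposed pair of any member. DNMT1, that methyltransferase, had 9161, 8192, 10205 and 5032, with -0.10 and -0.68. The histone deposition factors CHAF1A (0.28 and -0.50) and CHAF1B (0.40 and -0.01) were higher in sparse cells and less far below control in confluent cells than UHRF1 and DNMT1. All 4 genes were lowest on the CDC73 confluent array.

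The E2F factors differed from one another. E2F2, an activator, had 2741 with control and 1810 with CDC73 siRNA when sparse, and 3549 and 904 when confluent, so that both arrays with CDC73 siRNA were below both with control siRNA. Its siRNA effects were -0.59 and -1.57. E2F7, a repressor that is itself an E2F target, had 641, 1053, 1073 and 756, with 0.71 and 0.06. E2F8, its close relative, was detected on the CDC73 sparse array only, and E2F1 on none. CDC25A, the phosphatase that activates CDK2, had 1091, 1024, 855 and 561, with effects of -0.13 and -0.07.

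A single fit over all 4 arrays (limma, siRNA plus density, 1 residual degree of freedom, Benjamini-Hochberg adjustment over 10763 genes) tested effects averaged over the other factor. For siRNA that is the mean over both densities, so the fit does not test whether an effect held at each density. E2F2 was the only member that passed for siRNA. It fell by 1.08 on the log2 scale with a standard error of 0.281, an adjusted p of 0.00652 and the same sign at both densities, where 2.36% of all genes passed as lower and 1.76% as higher. At an unadjusted p under 0.05 the count of members was also 1 of 47, against 14.2% of all genes. For density 0 of 47 members passed in limma (4.98% of all genes as higher and 3.09% as lower), and 2, CDC6 and CDC25A, had an unadjusted p under 0.05 (20.8% of all genes). The fit gave every gene the same standard error, drawn over all genes from how far the siRNA effects differed between densities. Effects of opposite sign at the 2 densities cancel in it, as for MCM2 at -0.02. The fit therefore cannot show an order that reverses between densities, as in the MCM ring. Without a detection filter the adjusted p of E2F2 was 0.28, and over the other settings it lay between 6.75e-05 and 0.046.

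**Figure D3:**
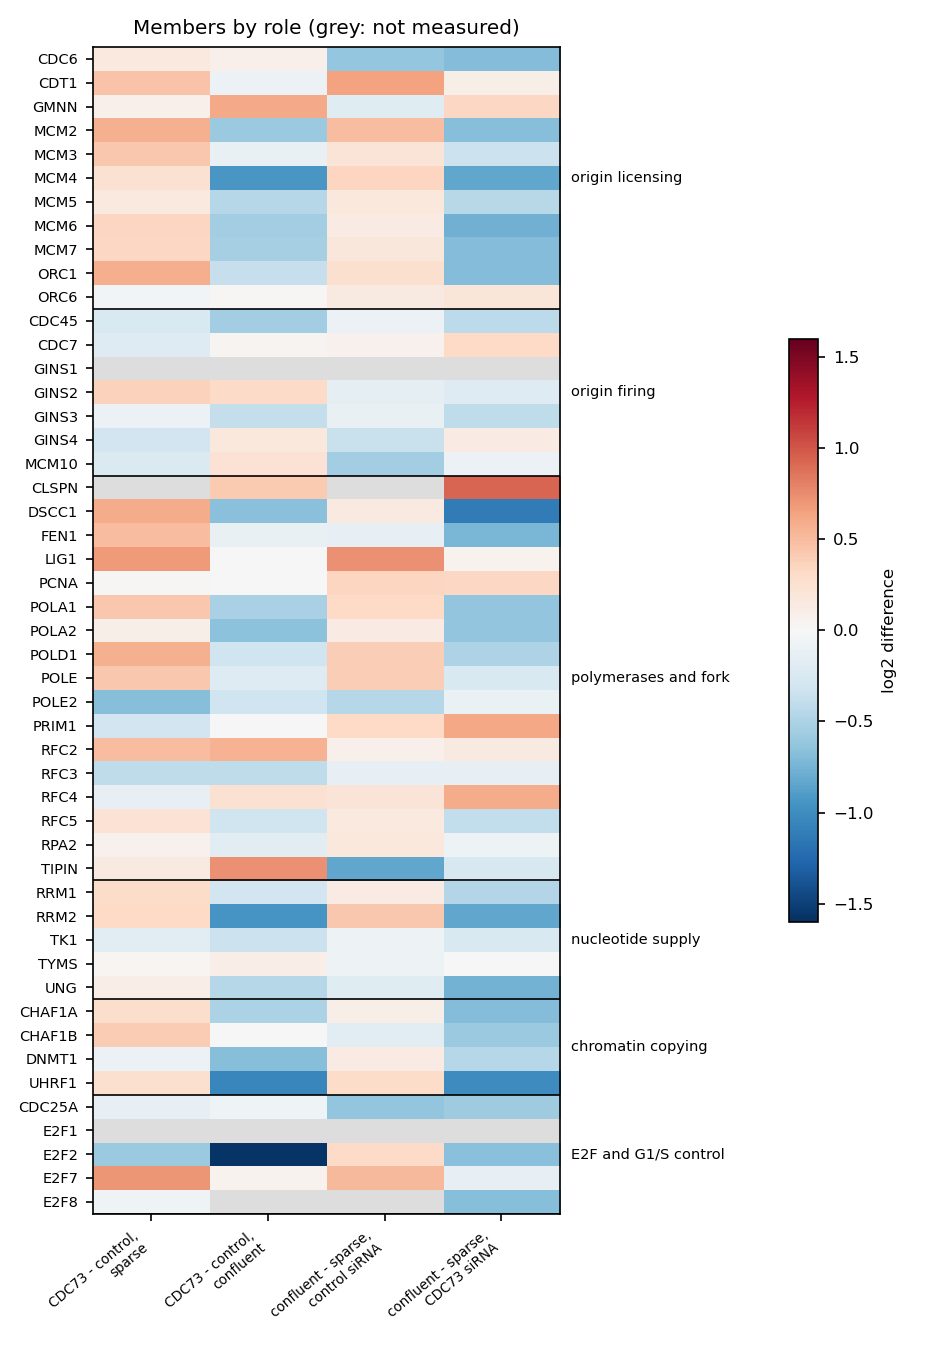
Log2 differences (colour, red higher and blue lower) of the 49 members (horizontal bands, grouped by role) in the 4 comparisons of arrays (columns); grey cells were not measured. The MCM2 to MCM7 bands are red for siRNA in sparse cells and for density with control siRNA and blue in the other columns, and E2F2 has the darkest cell, at -1.57.

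With control siRNA, confluent cells did not have lower replication genes than sparse cells in the reported values. Of 45 measured members 29 were higher in confluent cells (51.9% of all genes, with 48.0% lower), with a median of 0.13 against 0.02. Both median scalings put the members 0.10 below all genes, and with scaling over detected probes 29 of 45 were lower, so no direction is settled for this comparison. At least 1.5-fold lower were TIPIN (-0.83), CDC25A (-0.64) and CDC6 (-0.62), 3 of 45 against 9.55% of all genes. LIG1 (0.73) and CDT1 (0.65) were at least 1.5-fold higher, 2 of 45 against 13.3%. No member reached 2-fold (3.86% of all genes higher, 1.64% lower). The 6 MCM ring genes were at 0.13 to 0.49, and 4 of them were lower with scaling over detected probes.

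With CDC73 siRNA, confluent cells had lower replication genes than sparse cells, with more members at least 1.5-fold lower than in the other 3 comparisons. Of 47 measured members 36 were lower (51.8% of all genes, with 48.1% higher), with a median of -0.41 against -0.02, and the median stayed between -0.25 and -0.68 under all 10 alternatives. At least 1.5-fold lower were 17 members (14.9% of all genes), of which 16 were detected on both arrays, while E2F8, detected on the CDC73 sparse array only, has a bound of 1.17-fold, and DSCC1 (-1.11) and UHRF1 were at least 2-fold lower (3.88%). RRM2 and MCM4 were at -0.83, MCM6 at -0.77, UNG at -0.75, FEN1 at -0.73, and CDC6 and MCM7 at -0.70 and -0.69. The members at least 1.5-fold higher (14.4% of all genes) and detected on both arrays were 2, PRIM1 (0.62, second probe 0.45) and RFC4 (0.59, second probe -0.00), and none was 2-fold higher (4.31%). CLSPN makes 3 by its fitted value, but its bound is 1.13-fold. The 2 density comparisons each share arrays with the siRNA comparisons, so these are the same 4 arrays read the other way. CDC6 was at least 1.5-fold lower in confluent cells with both siRNAs (-0.62 and -0.70), and CDC25A was at -0.64 and -0.57, with a dim second probe (143, 124, 109 and 101, detected on 2 arrays) at -1.03 and -0.53.

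Other replication genes, of which 44 were on the array, were also mostly lower with CDC73 siRNA in confluent cells. In confluent cells 30 of 41 measured were lower with CDC73 siRNA (median -0.13, with 50.2% of all genes lower), 8 of them at least 1.5-fold (13.2% of all genes), led by the exonuclease EXO1 (-1.07), the histone chaperone ASF1A (-0.88), MCMBP, which binds the MCM ring (-0.87), and the E2F cofactor ATAD2 (-0.86). In sparse cells 22 of 41 were higher (median 0.09), near the 53.9% of all genes. The difference between the siRNA effects had a median of -0.35, with 25 of 41 below 0 (53.8% of all genes) and EXO1 at -1.35.

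Mitotic genes, which act after replication in the cycle, were mostly lower at both densities. Of 36 G2/M genes 24 were lower with CDC73 siRNA in sparse cells (median -0.15, with 46.1% of all genes lower). In confluent cells 30 were lower (median -0.26, with 50.2% of all genes lower). Between densities 26 were lower in confluent cells with control siRNA (median -0.18, with 48.0% of all genes lower). With CDC73 siRNA 25 were lower (median -0.49, with 51.8% of all genes lower). The difference between the siRNA effects had a median of -0.36, with 22 of 36 below 0, not far from the 53.8% of all genes. The G1 regulators had a median of -0.35 for this difference, with 15 of 21 below 0, so a negative median was found in all 3 of these lists as well as in the members. In sparse cells 12 of 21 measured G1 regulators were higher with CDC73 siRNA (median 0.02), near the 53.9% of all genes. In confluent cells 17 were lower (median -0.19, with 50.2% of all genes lower). The D-type cyclin CCND1, which starts the release of E2F, was at -1.62 in sparse and -2.62 in confluent cells with CDC73 siRNA. Another D-type cyclin, CCND2, was at -1.20 and -2.07. RBL1, a member of the RB family, went the other way in sparse cells (0.88) and was at -0.18 in confluent cells. It was near the detection limit, at 119, 167, 141 and 109, and was detected on 3 arrays, not on control sparse. CDKN1A, the inhibitor p21, had intensities of 1955, 3915, 8609 and 5736, and was higher with CDC73 siRNA in sparse cells (1.04) and at -0.19 in confluent cells.

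**Figure D4:**
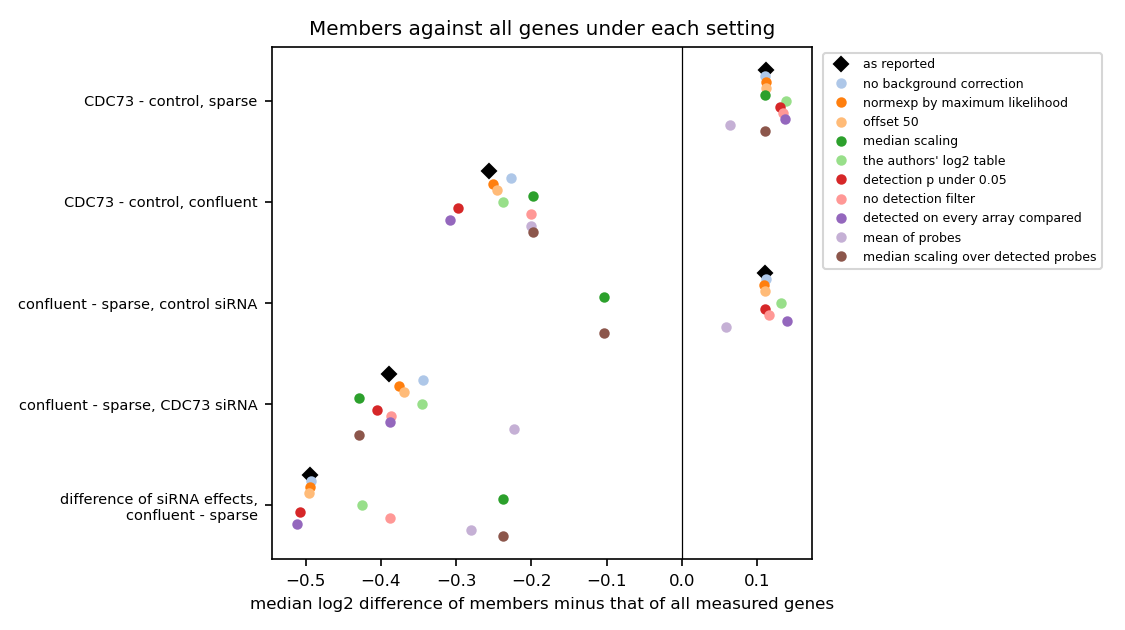
Median log2 difference of the members minus that of all measured genes (horizontal axis) for the 4 comparisons and the difference of the siRNA effects (rows), with a black diamond for the value as reported and a coloured point for each other setting. The values keep their side of 0 in every row except confluent against sparse cells with control siRNA, where both median scalings lie at -0.10.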

How the data were processed

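The 4 arrays are Illumina bead arrays of biotin-labelled cRNA, per the labels' protocols. The authors deposited linear probe intensity values, which per the file headers are not normalized, and a log2 table of the same arrays, whose correlation with log2 intensity was 0.998 to 1.000 and whose median is 6.42 on each array. How the authors made both tables is not given in the sources used. Of 48803 probes with values, 28098 had 1 symbol in the platform annotation, 13 several and 20692 none here.

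Background was corrected by normexp in limma 3.58.1 (R 4.3.3) with 453 olfactory receptor probes as negative controls, which were left out of gene results. An offset of 16, quantile normalization and log2 followed. The limits were a detection p under 0.01, 1.5-fold and 2-fold. The additive limma fit was tested on simulated data. The members and lists were chosen with earlier results of these data known. Values on all arrays are printed for the 6 largest differences per comparison, for repeated 1.5-fold differences and for members whose probes differ in sign, and for further members chosen after their values were seen. From each of the other lists at most the 4 largest differences per comparison are named, apart from RRM2B, which was picked after its values were seen. The alternatives were 9 listed at the start and 1 added after seeing the data, median scaling over detected probes.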

Additional observations from a re-analysis of the deposited data

Results flagged for a closer look

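The median effect of CDC73 siRNA over the members had opposite signs at the 2 densities, which is why these values are listed. Of 45 members detected on all arrays, 22 were higher in sparse and lower in confluent cells (23.2% of all genes). The reverse order was found for 5, while 9 were higher and 9 lower at both densities. The difference between the siRNA effects, confluent minus sparse, had a median of -0.55 over the members. It was -1.16 for MCM2, -1.18 for MCM4, -1.26 for DSCC1, -1.26 for RRM2 and -1.30 for UHRF1, the members detected on all arrays with opposite signs and a difference of at least 2-fold. With 1 array per group the difference was not tested. For MCM4 the second probe gave the opposite order.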

How the results depend on the processing

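No paired analysis was possible because each group has 1 array. The median over members kept its direction in all 5 contrasts under the 9 settings chosen at the start. Median scaling lowered all genes by 0.40 in the siRNA comparison in confluent cells and raised them by 0.22 in the density comparison with control siRNA. Under it the confluent siRNA median was -0.60, with 23 members at least 1.5-fold lower and 0 higher, and sparse cells had 5 higher. The density comparison had 5 higher and 1 lower with control siRNA, and 1 higher and 26 lower with CDC73 siRNA. Relative to all genes, the confluent siRNA median of members was -0.20 under median scaling, against -0.26 as reported. The share of all genes past 1.5-fold was not counted under the alternatives, so the counts in this section have no background. Scaling over detected probes, added after seeing the data, reversed the density median with control siRNA to -0.15 with 0 members at least 1.5-fold higher. It left 4 higher and 4 lower in the confluent siRNA comparison, and took the difference of the siRNA effects to -0.16, with 6 higher and 12 lower. The cause was not tested. Counts at 1.5-fold also moved without background correction (1 lower for siRNA in sparse cells, 1 lower for density with control siRNA, 1 higher for density with CDC73 siRNA, 0 higher for the difference of effects) and with an offset of 50 (1 lower in sparse cells, 1 higher for density with CDC73 siRNA). In the authors' log2 table density with CDC73 siRNA had 1 higher and 11 lower, and the difference of effects 0 higher. With no detection filter 4 members were lower in sparse cells and 0 passed the additive siRNA fit. With detection on every array the difference of effects had 0 higher, and with the mean of probes it had 0 higher, as had density with CDC73 siRNA. Of single members past 1.5-fold, and E2F2 in the additive fit, 61 results in all, none changed sign under these 10 alternatives, 51 values moved by more than the probe SD over all settings and members, and 1 adjusted p crossed 0.05. The number of arrays limits the precision, and dim members (CDC6, DSCC1, E2F8, CLSPN) are near the detection limit.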

Other observations

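Genes whose proteins act together did not always show the same differences. These genes were picked after their values were seen. TIMELESS, which binds TIPIN in the fork protection complex, had intensities of 1700 and 2321 in sparse cells (control, then CDC73 siRNA) and 3547 and 1812 in confluent cells. It was higher in confluent than in sparse cells with control siRNA (0.97), where TIPIN was at -0.83, and was lower with CDC73 siRNA in confluent cells (-0.53), where TIPIN was at 0.73. RRM2B, the p53-induced alternative to RRM2, had 371, 490, 637 and 602 and was higher with CDC73 siRNA at both densities (0.41 and 0.54), while RRM2 was at 0.31 and -0.95. DUT, which keeps uracil out of the nucleotide pool, had 1446, 893, 999 and 541 and was lower in every comparison, at -0.75 (sparse) and -0.38 (confluent) for siRNA and at -0.81 (control) and -0.44 (CDC73 siRNA) for density. MCMBP, with 489, 514, 546 and 235, had the order of the ring it binds in the siRNA comparisons (0.04 and -0.87). Each value comes from single arrays and no test was made.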
